A study of Mus musculus with 12 samples.

Results

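The 35 genes described here are MYC, its paralog and its partner (Myc, Mycn and Max) and 32 genes of ribosome biogenesis and of the polyamine and nucleotide synthesis that goes with growth. They were named as a list by symbol and read from the strand-specific count of each library. All 35 were found among the 54146 gene identifiers, and all 35 passed the filter on low counts, as did 14283 genes in all. RNA was sequenced from 12 samples of BMEL cells, a line of bipotential mouse embryonic liver cells (hepatic progenitors) derived from a mouse with floxed Cdk8 alleles. Each of 4 groups held 3 samples: wild-type cells without transformation (untransformed), wild-type cells transformed with H-RasG12V (RasG12V), Cdk8 -/- cells with H-RasG12V (Cdk8 KO), and Cdk19 -/- cells with H-RasG12V (Cdk19 KO). All groups were grown exponentially on collagen in medium with serum, insulin, IGFII and EGF, so every group received growth factors. The labels do not say whether the samples of a group were separate cultures, or whether a knockout was 1 clone, and p-values measure only the spread between these samples. The series asks how mutant H-Ras, and loss of either Mediator kinase in transformed cells, changes the transcriptome.

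MYC is a transcription factor that binds DNA as a dimer with MAX, at sites called E-boxes. It is known as a driver of growth: its targets include genes for RNA polymerase I transcription, for the processing of ribosomal RNA in the nucleolus, and for the enzymes that make polyamines and nucleotides. In liver, MYC rises during regeneration and is often raised in liver cancer. Cdk8 and Cdk19 are paralogous kinases of the Mediator kinase module, a part of the complex through which transcription factors reach RNA polymerase II.

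The best known E-box of MYC and MAX is CACGTG, which reads the same on both strands. It was searched in promoter windows from RefSeq (GRCm38.p6) that run from 250 bases before to 50 bases after a gene's start, which exist here for 28 of the 35 members. Bop1, Fbl, Myc, Npm1, Rrp12, Rrs1 and Srm had no window. CACGTG was present in 7 of the 28, or 25.0%, against 8.09% of the 27025 genes with a window. Those genes include ones that did not pass the filter on low counts, whereas all members passed it. The 8 sites are shown because the genes that carry them include Pes1 and Mybbp1a, which changed in the comparisons below, and Max itself. Each is given 5′ to 3′ on the gene's strand, with the E-box in capitals and up to 12 bases on either side inside the window.
Pes1 (plus strand, chr11:3963965-3963994): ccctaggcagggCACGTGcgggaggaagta
Mybbp1a (plus strand, chr11:72441355-72441376): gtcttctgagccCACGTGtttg
Nop2 (plus strand, chr6:125131811-125131840): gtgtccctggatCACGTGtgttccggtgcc
Max (minus strand, chr12:76962234-76962263): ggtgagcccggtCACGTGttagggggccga
Rrn3, distal site (plus strand, chr16:13780472-13780501): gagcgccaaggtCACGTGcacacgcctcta
Rrn3, proximal site (plus strand, chr16:13780639-13780668): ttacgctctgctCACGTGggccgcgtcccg
Utp20 (minus strand, chr10:88826765-88826789): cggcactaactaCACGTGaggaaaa
Wdr43 (plus strand, chr17:71616220-71616249): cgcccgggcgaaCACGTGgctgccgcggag

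The E-box began 60 bases before the start in Nop2, 3 bases before it in Max, and 215 and 48 bases before it in Rrn3. It began at transcribed base 3 in Pes1, 18 in Wdr43, 38 in Utp20 and 41 in Mybbp1a. These distances count from the RefSeq start of each window, which can differ from the start of the gene in GENCODE, whose coordinates are given for other results, as it does in Mybbp1a, Wdr43 and Max, among others. The related motif CACGCG, searched also as its reverse complement CGCGTG and counted once per gene, was in 10 of the 28 members with a window, or 35.7%, against 10.5% of all genes with one. Other lists of the same pathways also held CACGTG: 10 of 37 other small subunit processing genes with a window, 7 of 37 other large subunit processing genes and 15 of 35 other MYC targets. It was in 1 of 10 other genes of RNA polymerase I transcription and in 0 of 8 other snoRNP genes. Outside these pathways it was in 3 of 14 S phase genes with a window and in 0 of 11 mitosis genes. These are matches of letters, not measured binding.

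Libraries held 24823560 to 36879661 gene counts, and the smallest raw count of a member in any library was 3, for Mycn. Levels are CPM (counts scaled to library size, with trimmed-mean scaling), which are shares of a library's RNA and say nothing of RNA per cell. Replicate 3 of the untransformed group and replicate 3 of the RasG12V group stood apart: on the first 2 principal components the latter lay at 4.75 and -53.2, against 28.4 and 12.7 for RasG12V replicate 2. Counts of members past the threshold are given with and without both, as are those of the other gene lists in RasG12V against untransformed cells. Many other values, among them some counts by overlap, are given with all libraries only. Of 14 tested hepatic progenitor markers 4 rose and 7 fell with RasG12V, against 11.9% and 11.5% of all genes. Without both replicate 3 libraries 4 rose and 10 fell, against 19.0% and 21.0%. Krt19 stood at 2160 ± 271 CPM (SD, n = 3) in untransformed cells and 2164 ± 626 in RasG12V, where replicate 3 was highest at 2870. Krt7 fell from 506 ± 36.5 to 231 ± 44.6, and the hepatocyte gene Ttr from 32.4 ± 20.2 to 0.243 ± 0.286. Among the risers were Foxa1, from 9.89 ± 1.02 to 23.0 ± 2.28 CPM, Sox9, from 32.7 ± 7.96 to 67.6 ± 20.0, and Spp1, from 128 ± 86.7 to 742.5 ± 613. Epcam was at or below 0.211 CPM in every library, and markers of leukocytes, endothelium, stellate cells and erythroid cells summed to at most 7.90 CPM per list in any library. The mesothelial list summed to between 1091 and 1659 CPM, nearly all of it from 1 of its 4 genes, Msln, and the next highest, Upk3b, reached 6.59 CPM. Hras, to which reads of the introduced gene may map, was at 50.0 ± 8.57 CPM (SD, n = 3) in untransformed cells and 453 ± 123, 451 ± 6.07 and 422 ± 18.7 CPM in RasG12V, Cdk8 KO and Cdk19 KO. Cdk8 was at 42.8 ± 1.30 CPM in Cdk8 KO against 54.5 ± 3.13 in RasG12V, and Cdk19 at 49.8 ± 4.22 in Cdk19 KO against 75.2 ± 16.0. Counts over a whole gene do not test a deleted part, so they do not check the knockout labels.

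Per kilobase of annotated exon in untransformed cells, Npm1 (nucleophosmin, a nucleolar chaperone) was highest at 425 ± 45.4 CPM per kb (SD, n = 3), followed by Ncl (nucleolin, which binds pre-ribosomal RNA) at 286 ± 62.3. Mybbp1a, a nucleolar MYB-binding protein, came next at 112 ± 10.2 and Myc was seventh at 65.9 ± 7.81 CPM per kb. Wdr12 at 6.31 ± 0.821 and Mycn at 0.885 ± 0.238 were the lowest. Only 4 neighbours in that order did not overlap over the 3 libraries: Npm1 with Ncl, Ncl with Mybbp1a, Polr1a with Wdr12, and Wdr12 with Mycn. The order depends on the annotated exon length, which was 10188 bases for Ncl and 11955 for Wdr12. STAR counts a read only where it maps to 1 place, so genes with processed pseudogenes, such as Npm1, are uncertain.

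**Figure D1:**
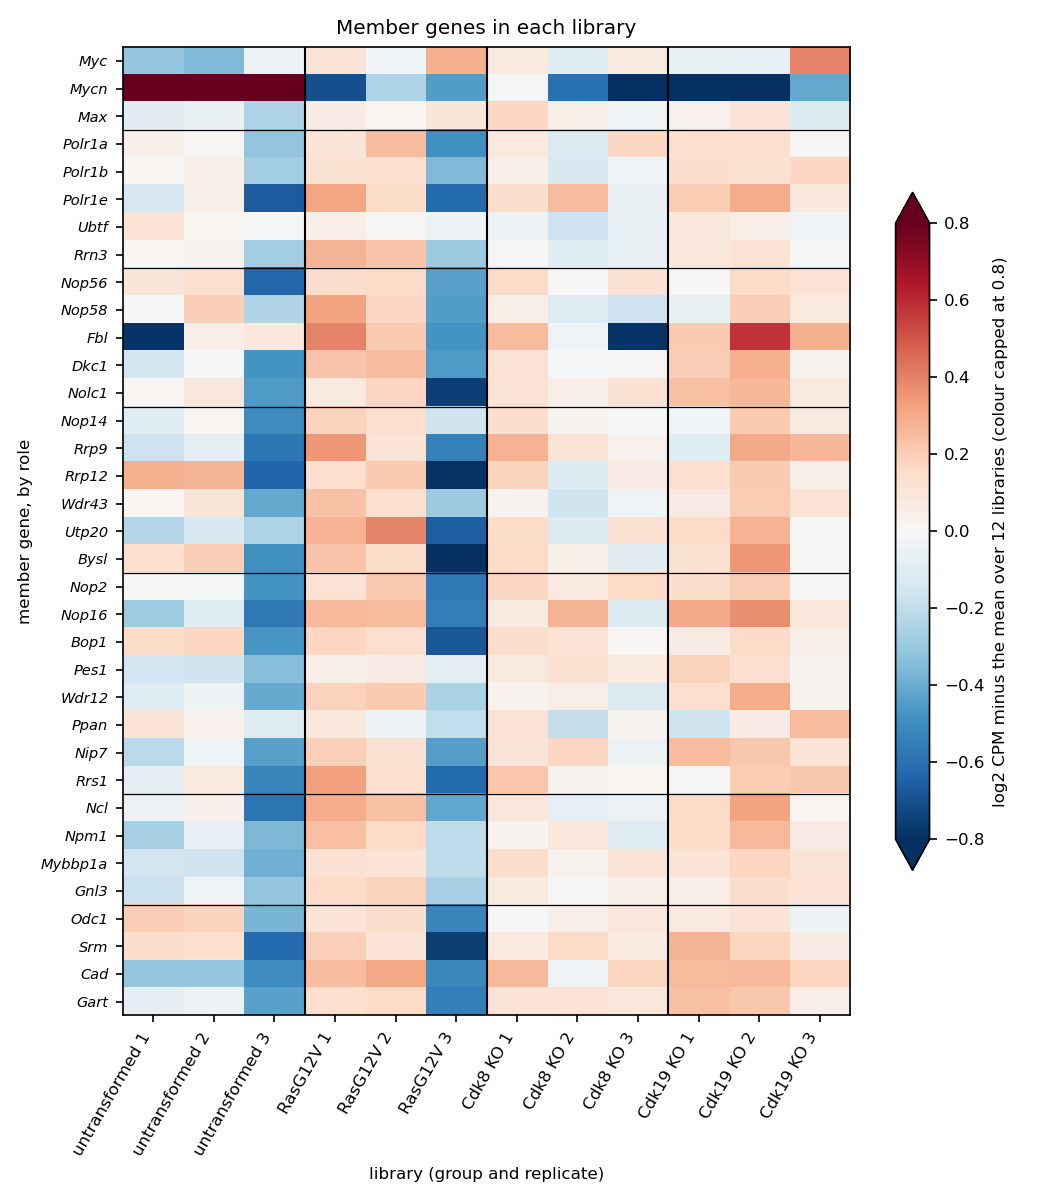
Colour shows each member's log2 CPM minus its mean over the 12 libraries, with members in rows by role, libraries in columns by group, and the colour capped at 0.8 (log2). The columns of untransformed replicate 3 and RasG12V replicate 3 are below the mean for most members, while Myc is not, and Mycn separates the untransformed libraries from the other 9.

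The clearest change among the MYC genes was in Mycn, not in Myc. Mycn (N-myc; chromosome 12, 12936093 to 12941914, minus strand, GRCm38) is the paralog used mainly in embryonic progenitors. It stood at 2.98, 2.10 and 3.67 CPM in the untransformed libraries. In the RasG12V libraries it stood at 0.328, 0.450 and 0.392 CPM, in Cdk8 KO at 0.531, 0.353 and 0.243, and in Cdk19 KO at 0.212, 0.104 and 0.402. Every library with H-RasG12V was below every untransformed library. Mycn was 7.44-fold lower in RasG12V, with a log2 fold change of -2.90 (SE 0.37, edgeR adjusted p = 0.000136). Against untransformed cells its log2 fold change was -2.96 in Cdk8 KO (SE 0.37, edgeR adjusted p = 0.000112) and -3.58 in Cdk19 KO (SE 0.40, edgeR adjusted p = 4.243e-05). These 3 comparisons share the untransformed libraries. Mycn passed the threshold under all 22 alternatives run in each. Its raw counts were 68 to 123 in the untransformed libraries and 3 to 15 in the other 9, so the sizes of these falls are imprecise.

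Myc itself, on the plus strand of chromosome 15 (61985391 to 61990374), was abundant in every group. The untransformed libraries had 169.5, 164.3 and 203 CPM, and the RasG12V libraries 225, 207 and 256 CPM. The groups did not overlap, but the lowest RasG12V library was only just above the highest untransformed one. Its log2 fold change was 0.36 (SE 0.13) with an edgeR adjusted p of 0.0736, which misses the threshold of 0.05. The approximate 95% interval ran from 0.10 to 0.62. Myc passed the threshold under 4 of 22 alternatives. In Cdk8 KO Myc stood at 222, 196 and 221 CPM and in Cdk19 KO at 202, 201 and 277 CPM, both overlapping RasG12V. Against RasG12V its log2 fold changes were -0.11 in Cdk8 KO (approximate 95% interval -0.37 to 0.15) and -0.02 in Cdk19 KO (-0.28 to 0.24), which leaves room for changes of either sign of that size. Against untransformed cells they were 0.25 in Cdk8 KO (edgeR adjusted p = 0.204) and 0.34 in Cdk19 KO (0.082). Myc passed there under 1 and 5 of 22 alternatives. Without both replicate 3 libraries Myc rose in Cdk19 KO by 0.43 (edgeR adjusted p = 0.0188). It did not pass in RasG12V or Cdk8 KO against untransformed cells in that fit.

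Max, the partner that MYC and MYCN need to bind DNA, stood at 77.8, 79.7 and 69.6 CPM in untransformed cells and at 86.5, 83.8 and 88.7 CPM in RasG12V. The groups did not overlap, and the log2 fold change was 0.19 (SE 0.08, edgeR adjusted p = 0.124). In Cdk8 KO Max was at 92.9, 85.6 and 81.5 CPM, and in Cdk19 KO at 84.7, 88.9 and 76.5 CPM, the latter overlapping the untransformed libraries. Of 16 other tested genes of the MYC network, 2 rose and 1 fell with RasG12V, against 11.9% and 11.5% of all genes. Mxi1, a MAX partner that represses, rose by a log2 fold change of 0.79 (SE 0.19, edgeR adjusted p = 0.00989), and Ruvbl1, an ATPase that binds MYC, rose by 0.35 (SE 0.09, edgeR adjusted p = 0.0131). Mxd3, another repressing MAX partner, fell by 0.88 on the log2 scale (SE 0.21, edgeR adjusted p = 0.00849). Without both replicate 3 libraries 6 of the 16 rose and 2 fell, against 19.0% and 21.0% of all genes.

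**Figure D2:**
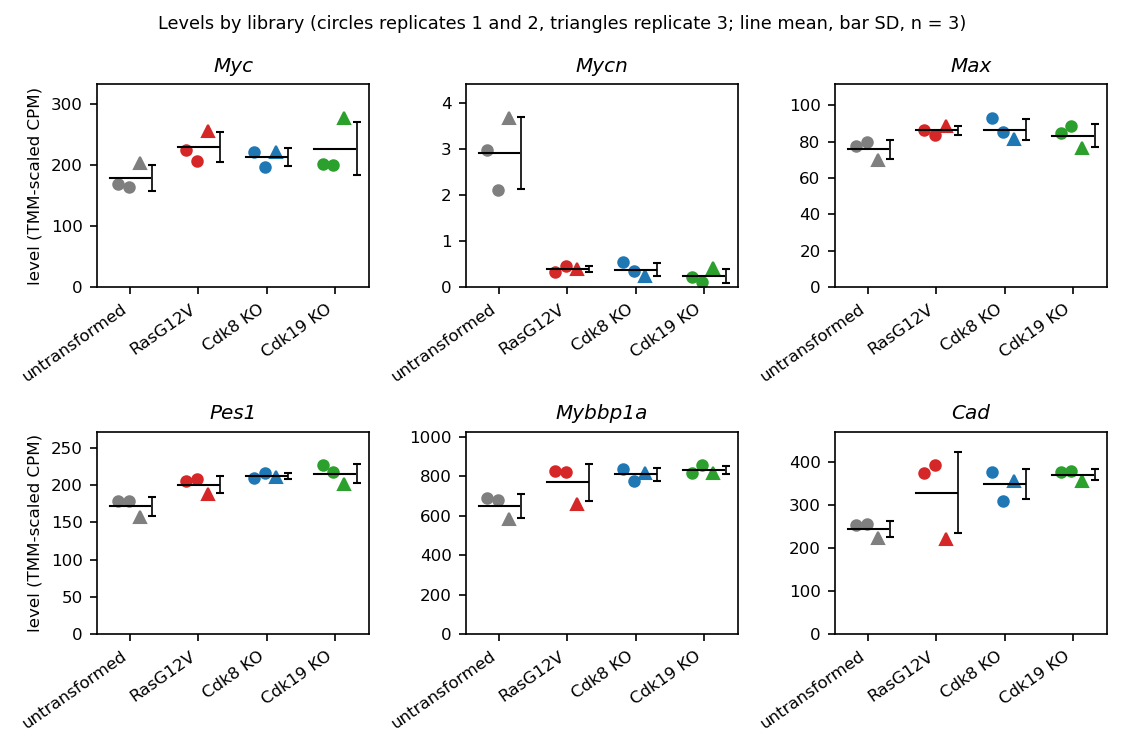
Points show the level (TMM-scaled CPM, axis from 0) of 6 members in each library of the 4 groups, with circles for replicates 1 and 2, triangles for replicate 3, a line for the mean and a bar for the SD (n = 3). Mycn is below 0.6 CPM in all 9 libraries with H-RasG12V, and Cad in RasG12V replicate 3 (220 CPM) sits with the untransformed libraries rather than with RasG12V replicates 1 and 2.

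With all libraries, few ribosome biogenesis genes passed the test in RasG12V against untransformed cells. Among the 35 members 1 rose, Pes1, and 1 fell, Mycn. Over all 14283 genes 11.9% rose and 11.5% fell. The log2 fold change was positive for 26 of 35 members, with a median of 0.16 against a median near 0 over all genes (-0.0004). Without both replicate 3 libraries 28 were positive (median 0.19). Leaving out untransformed replicate 3 alone gave 19 (median 0.04), and RasG12V replicate 3 alone 34 (median 0.32). Pes1 (pescadillo; chromosome 11, 3963975 to 3980004, plus strand) forms with Bop1 and Wdr12 a complex that processes the RNA of the large ribosomal subunit. It stood at 179, 178 and 157 CPM in untransformed cells and at 206, 208 and 188 CPM in RasG12V, with no overlap. Its log2 fold change was 0.23 (SE 0.08, edgeR adjusted p = 0.0473), a rise of 1.17-fold. That call is close to the threshold: it was lost under 11 of 22 alternatives, whose adjusted p ran from 0.00853 to 0.167. Its complex partners had log2 fold changes of -0.05 for Bop1 (edgeR adjusted p = 0.889) and 0.23 for Wdr12 (edgeR adjusted p = 0.238).

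These counts depended on the 2 replicate 3 libraries. Of the 35 members, 31 had their lowest level of the group in both untransformed replicate 3 and RasG12V replicate 3, or 88.6%, against 24.5% of all genes tested. The exceptions were Myc, Mycn, Max and Fbl. Myc was the highest of its group in both, a pattern of 25.2% of all genes. Relative to the other 2 replicates of each group, the members had a median log2 ratio of -0.34 in the untransformed library and -0.67 in the RasG12V library, against 0.01 and -0.002 over all genes. In bulk RNA, fewer cells with a high level and a lower level in every cell cannot be told apart.

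By role, the medians of this dip differed but the members' ranges overlapped, and no test was made. In RasG12V replicate 3 the median log2 ratio was -0.86 for the 6 small subunit processing genes, -0.74 for the 4 genes of polyamine and nucleotide synthesis, -0.69 for the 5 snoRNP genes and -0.66 for the 8 large subunit processing genes. It was -0.54 for the 5 genes of RNA polymerase I transcription and -0.41 for the 4 other nucleolar proteins. The lowest single ratios there were those of Utp20 (-0.99), Bysl (-0.98) and Rrp12 (-0.96), which act in small subunit assembly. Ubtf, the factor that keeps ribosomal DNA open, was nearly level at -0.07 in both libraries, and Pes1 was at -0.18 and -0.14. Myc was at 0.28 and 0.25.

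**Figure D3:**
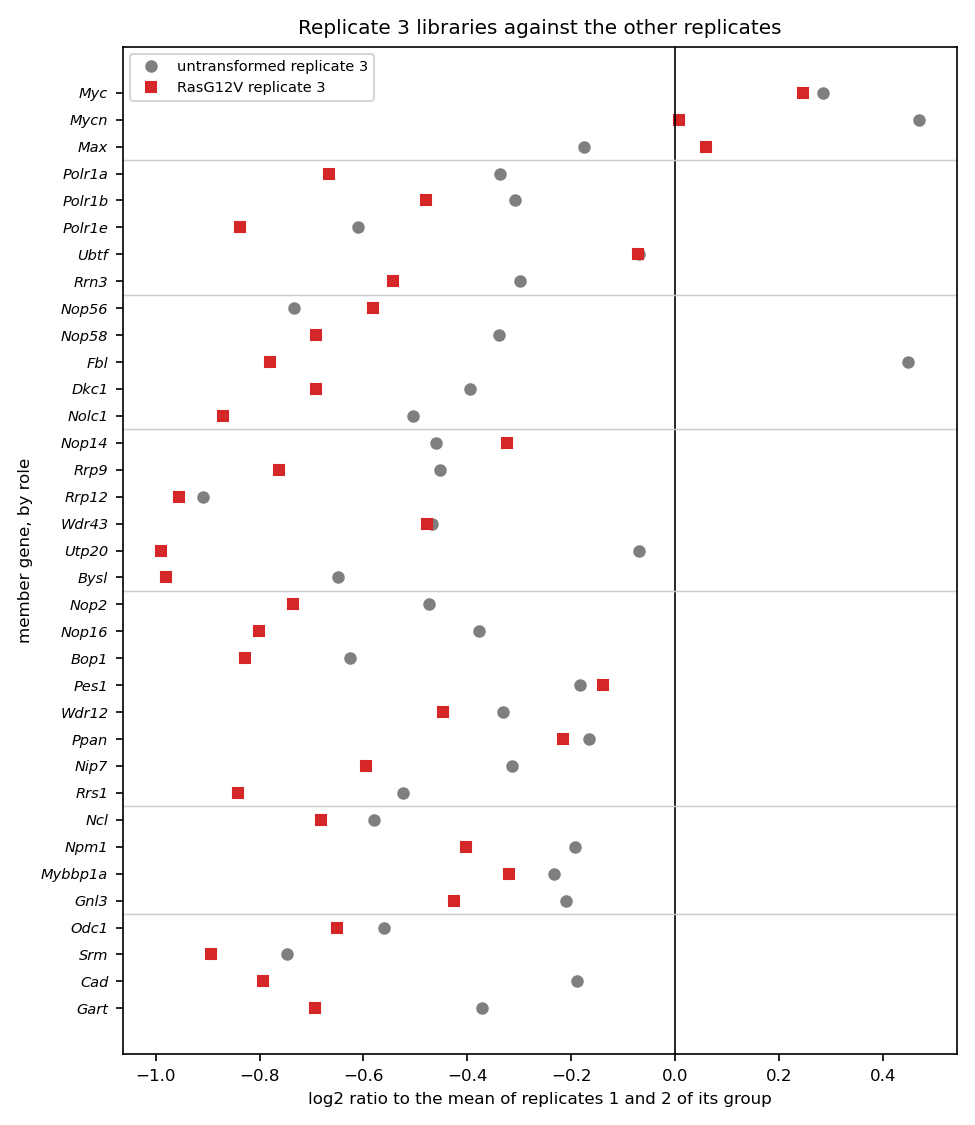
Each point is the log2 ratio (CPM plus 0.5) of 1 replicate 3 library to the mean of replicates 1 and 2 of its group, for the 35 members by role, with circles for untransformed and squares for RasG12V. Most members lie left of 0 in both libraries, while Myc lies right of 0 at 0.28 and 0.25, and Fbl is the only member outside the MYC network with a point right of 0.

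The geometric mean of the 32 members outside the MYC network shows the same split. It was 176, 187 and 139 CPM in the untransformed libraries and 211, 207 and 135 CPM in RasG12V. It was 199, 186 and 184 CPM in Cdk8 KO and 200.3, 215 and 195 CPM in Cdk19 KO. RasG12V replicate 3 was the lowest of the 12 libraries, below all 3 untransformed ones, while RasG12V replicates 1 and 2 were above all 3.

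Other measures moved in the same 2 libraries. Of all genes tested, 40.6% were lowest of the group in untransformed replicate 3 and 43.7% in RasG12V replicate 3. Of 16 S phase genes, 15 were lowest in untransformed replicate 3 and 16 in RasG12V replicate 3, with median log2 ratios of -0.35 and -0.93. Of 12 mitosis genes, 10 and 12 were lowest, with medians of -0.14 and -0.85. The mitochondrial share of counts was highest in RasG12V replicate 3, at 1.92% against a median of 1.44% over the libraries, and Hras was lower there, at 313 CPM against 509.7 and 537 in replicates 1 and 2. For 14 hepatic progenitor markers the median log2 ratio was 0.56 in the RasG12V library but -0.21 in the untransformed one. The part of any of these in the members' levels was not tested.

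Without both libraries, 14 members rose and 1 fell with RasG12V, against 19.0% and 21.0% of 14493 genes tested. The members were spread over all roles outside the MYC network. All 4 other nucleolar proteins rose: Npm1 by a log2 fold change of 0.35 (edgeR adjusted p = 0.00248), Mybbp1a by 0.26 (0.00354), Gnl3, also called nucleostemin, by 0.24 (0.00746) and Ncl by 0.25 (0.0245). Of the 8 large subunit processing genes 4 rose: Nop16 by 0.43 (edgeR adjusted p = 0.00673), Nip7 by 0.26 (0.0158), Pes1 by 0.20 and Wdr12 by 0.25 (both 0.0219). Of the 6 small subunit processing genes 2 rose: Utp20, a scaffold of the small subunit processome, by 0.50 (edgeR adjusted p = 0.000346) and Rrp9, a U3 snoRNP protein, by 0.34 (0.0465).

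Dkc1, the pseudouridine synthase of box H/ACA snoRNPs, was the 1 riser of 5 snoRNP genes, by 0.30 (edgeR adjusted p = 0.00534). Rrn3, the initiation factor that brings RNA polymerase I to its promoter, was the 1 riser of 5 genes of RNA polymerase I transcription, by 0.21 (0.0137). The polymerase subunits did not pass the test, with log2 fold changes of 0.14 for Polr1a, 0.08 for Polr1b and 0.26 for Polr1e (smallest edgeR adjusted p = 0.0509). Among the enzymes, Cad rose by 0.58 (edgeR adjusted p = 7.739e-06) and Gart by 0.19 (0.0292). Cad and Gart make pyrimidines and purines. The polyamine enzymes Odc1 and Srm had log2 fold changes of -0.08 and -0.003. Leaving out RasG12V replicate 3 alone gave 18 rises and 1 fall, against 16.9% of genes rising and 16.1% falling. Leaving out untransformed replicate 3 alone gave 1 rise and 1 fall, against 14.1% and 12.8% of genes, and the riser was Myc: its log2 fold change was then 0.46 (edgeR adjusted p = 0.0317).

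Counted by overlap, 3 members were higher in all RasG12V than in all untransformed libraries, and 1 was lower, against 16.2% of all genes in each direction. Without both replicate 3 libraries 25 were higher and 3 lower, against 37.3% and 35.8% of all genes with 2 libraries a side.

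Cad, which carries the first 3 steps of pyrimidine synthesis, lies on the plus strand of chromosome 5 (31054780 to 31078479). Its level was 253, 254 and 223 CPM in untransformed cells. It stood at 373, 391 and 220 CPM in RasG12V, at 377, 309 and 356 in Cdk8 KO and at 376, 378 and 355 in Cdk19 KO. All libraries with H-RasG12V were above all untransformed ones except RasG12V replicate 3. With all libraries its log2 fold change in RasG12V was 0.43 (SE 0.17, edgeR adjusted p = 0.088).

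Mybbp1a lies on the plus strand of chromosome 11 (72441355 to 72451768). Its level was 687, 679.5 and 581 CPM in untransformed cells and 828, 820 and 660 CPM in RasG12V. It stood at 837, 775 and 815 CPM in Cdk8 KO and at 819, 854 and 817 CPM in Cdk19 KO. The knockout libraries were all above the untransformed ones. Npm1 lies on the minus strand of the same chromosome (33152287 to 33163206). Its level was 1100, 1268 and 1033 CPM in untransformed cells and 1564, 1482 and 1152 CPM in RasG12V. It stood at 1350, 1408 and 1231 CPM in Cdk8 KO and at 1476, 1582 and 1385 CPM in Cdk19 KO. Cdk19 KO did not overlap the untransformed libraries, while Cdk8 KO did.

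Both knockout groups carried H-RasG12V and were also set against untransformed cells. In Cdk8 KO 3 members rose and 1 fell, against 12.3% and 12.2% of all genes. The risers were Cad (log2 fold change 0.51, SE 0.17, edgeR adjusted p = 0.0442), Mybbp1a (0.32, SE 0.10, 0.0327) and Pes1 (0.31, SE 0.08, 0.0105). In Pes1 the Cdk8 KO libraries stood at 209, 216 and 210 CPM and the Cdk19 KO libraries at 226, 218 and 202 CPM, all above untransformed cells. In Cdk19 KO 4 members rose and 1 fell, against 12.4% and 12.9% of all genes: Cad (0.60, SE 0.17, 0.02), Npm1 (0.39, SE 0.12, 0.0315), Mybbp1a (0.35, SE 0.10, 0.0184) and Pes1 (0.33, SE 0.08, 0.00661). With all libraries the log2 fold change was positive for 31 members in Cdk8 KO (median 0.19, against -0.01 over all genes). In Cdk19 KO it was positive for 33 (median 0.27, against -0.0008 over all genes). Without both replicate 3 libraries it was positive for 21 in Cdk8 KO (median 0.08) and 26 in Cdk19 KO (median 0.13). Leaving out untransformed replicate 3 alone also gave 21 and 26.

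Of the members past the threshold, only Pes1 and Mycn kept their calls under all 22 alternatives in both knockouts. Mybbp1a was lost under 6 of 22 in Cdk8 KO and 1 in Cdk19 KO, Cad under 8 and 3, and Npm1 under 4 in Cdk19 KO. Without both replicate 3 libraries, 4 members rose and 3 fell in Cdk8 KO (19.9% and 22.3% of all genes), and 12 rose and 1 fell in Cdk19 KO (21.1% and 22.5%). The falls in Cdk8 KO then included Rrp12, a small subunit export factor, which went from a log2 fold change of 0.02 (edgeR adjusted p = 0.976) to -0.24 (0.0125). The others were Mycn and Ubtf, the latter at -0.16 (0.0456).

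By overlap with all libraries, 10 members were higher and 2 lower in Cdk8 KO than in untransformed cells, against 20.6% and 22.0% of all genes. In Cdk19 KO 14 were higher and 1 lower, against 21.7% and 22.1%.

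**Figure D4:**
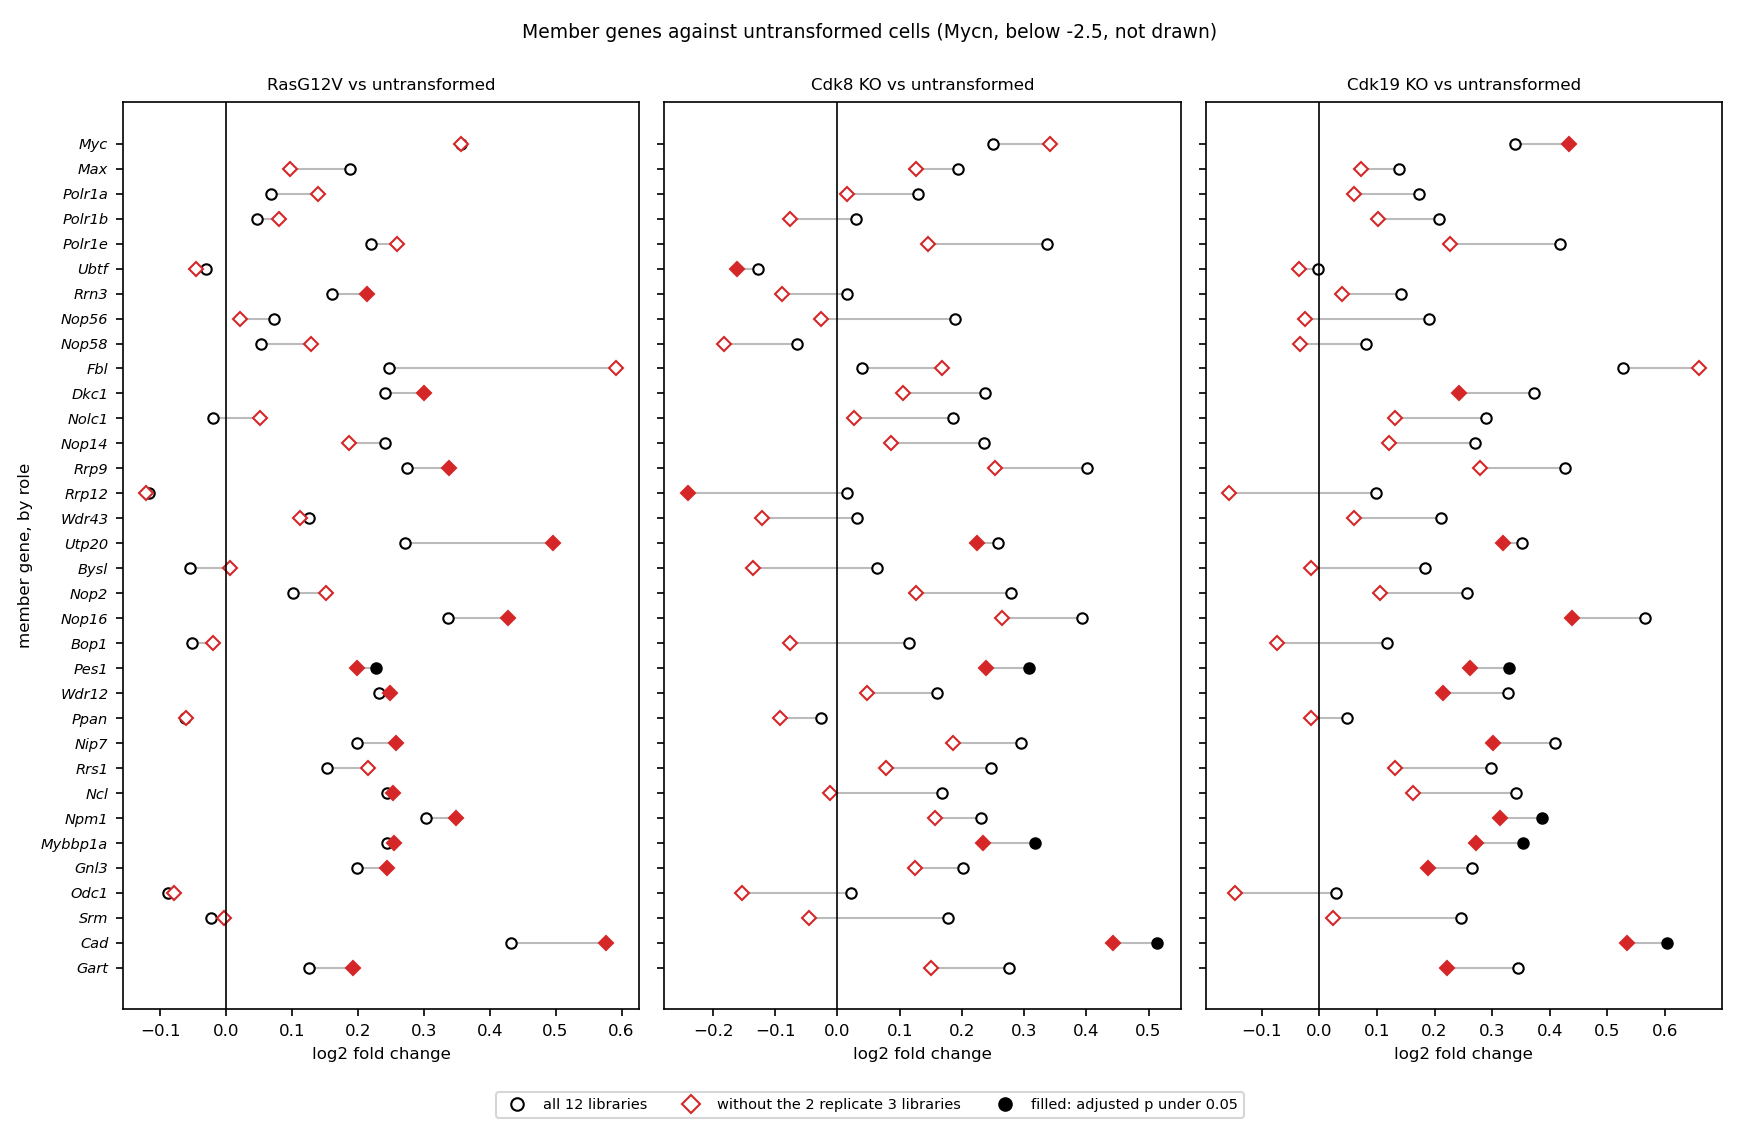
Points show the log2 fold change of 34 members against untransformed cells in RasG12V, Cdk8 KO and Cdk19 KO, as circles with all 12 libraries and as diamonds without the 2 replicate 3 libraries, filled where the edgeR adjusted p was under 0.05. Filled diamonds outnumber filled circles in each panel: among all 35 members, 14 rises without the 2 libraries against 1 with them in RasG12V.

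No member passed the test in transformed cells lacking Cdk8 or Cdk19 when set against RasG12V. In Cdk8 KO against RasG12V, 0 members and 0 of all genes (0.0%) passed with edgeR. At an unadjusted p under 0.05 there were 871 genes and 0 members, and DESeq2 passed 30 genes and 0 members. The log2 fold change was positive for 21 of 35 members, with a median of 0.06. The members with the largest values were Fbl (-0.21), Nolc1 (0.21), Srm (0.20) and Nop2 (0.18), with edgeR adjusted p from 0.905 to 0.934. Nop2 stood at 228, 243 and 141 CPM in RasG12V and at 236, 221 and 235 CPM in Cdk8 KO. Outside Mycn, the approximate 95% intervals of the members ran from -0.77 (Fbl) to 0.65 (Srm).

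In Cdk19 KO against RasG12V, 0 members passed with edgeR or DESeq2, against 0.014% of all genes with edgeR. DESeq2 passed 66 genes in all, and with edgeR 1089 genes and 0 members were under an unadjusted p of 0.05. The median was 0.12, and 31 members were positive. The largest values were those of Mycn (-0.68), Nolc1 (0.31), Fbl (0.28) and Srm (0.27), with edgeR adjusted p from 0.759 to 0.861. The intervals outside Mycn ran from -0.32 (Utp20) to 0.84 (Fbl), so a change of the size seen in Cad with RasG12V could have gone undetected in some members.

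The direction of these small differences turned with 1 library. Nolc1, a chaperone of snoRNPs, stood at 487, 522 and 275 CPM in RasG12V, at 499, 478 and 503 CPM in Cdk8 KO and at 544, 557 and 489 CPM in Cdk19 KO. Srm, the spermidine synthase, stood at 52.1, 49.0 and 27.0 CPM in RasG12V, at 48.1, 50.9 and 47.8 in Cdk8 KO and at 54.9, 51.3 and 47.7 in Cdk19 KO. In both genes it was RasG12V replicate 3 that lay apart from the other 8 libraries with H-RasG12V. Without that library alone the members' median was -0.11 in Cdk8 KO, with 2 positive, and -0.04 in Cdk19 KO, with 12 positive.

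Without both replicate 3 libraries 1 member passed in Cdk8 KO against RasG12V, Rrn3, which fell by 0.30 on the log2 scale (edgeR adjusted p = 0.0138), against 1.59% of all genes in either direction and 0.414% that fell. Rrn3 stood at 164, 158 and 110.2 CPM in RasG12V, at 134, 126 and 130 CPM in Cdk8 KO and at 144, 147 and 135 CPM in Cdk19 KO. Its Cdk8 KO libraries lie between RasG12V replicate 3 and the other 2 RasG12V libraries. By overlap with all libraries, 1 member was higher and 1 lower in Cdk8 KO, against 6.36% and 6.18% of all genes, and none in Cdk19 KO, against 6.75% and 7.78%. By overlap without both, 13 members were lower and 1 higher in Cdk8 KO, against 18.9% and 19.2% of all genes. In Cdk19 KO 2 were lower and 0 higher, against 17.6% and 17.3%, and 0 passed the test with edgeR, against 2.01% of all genes.

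**Figure D5:**
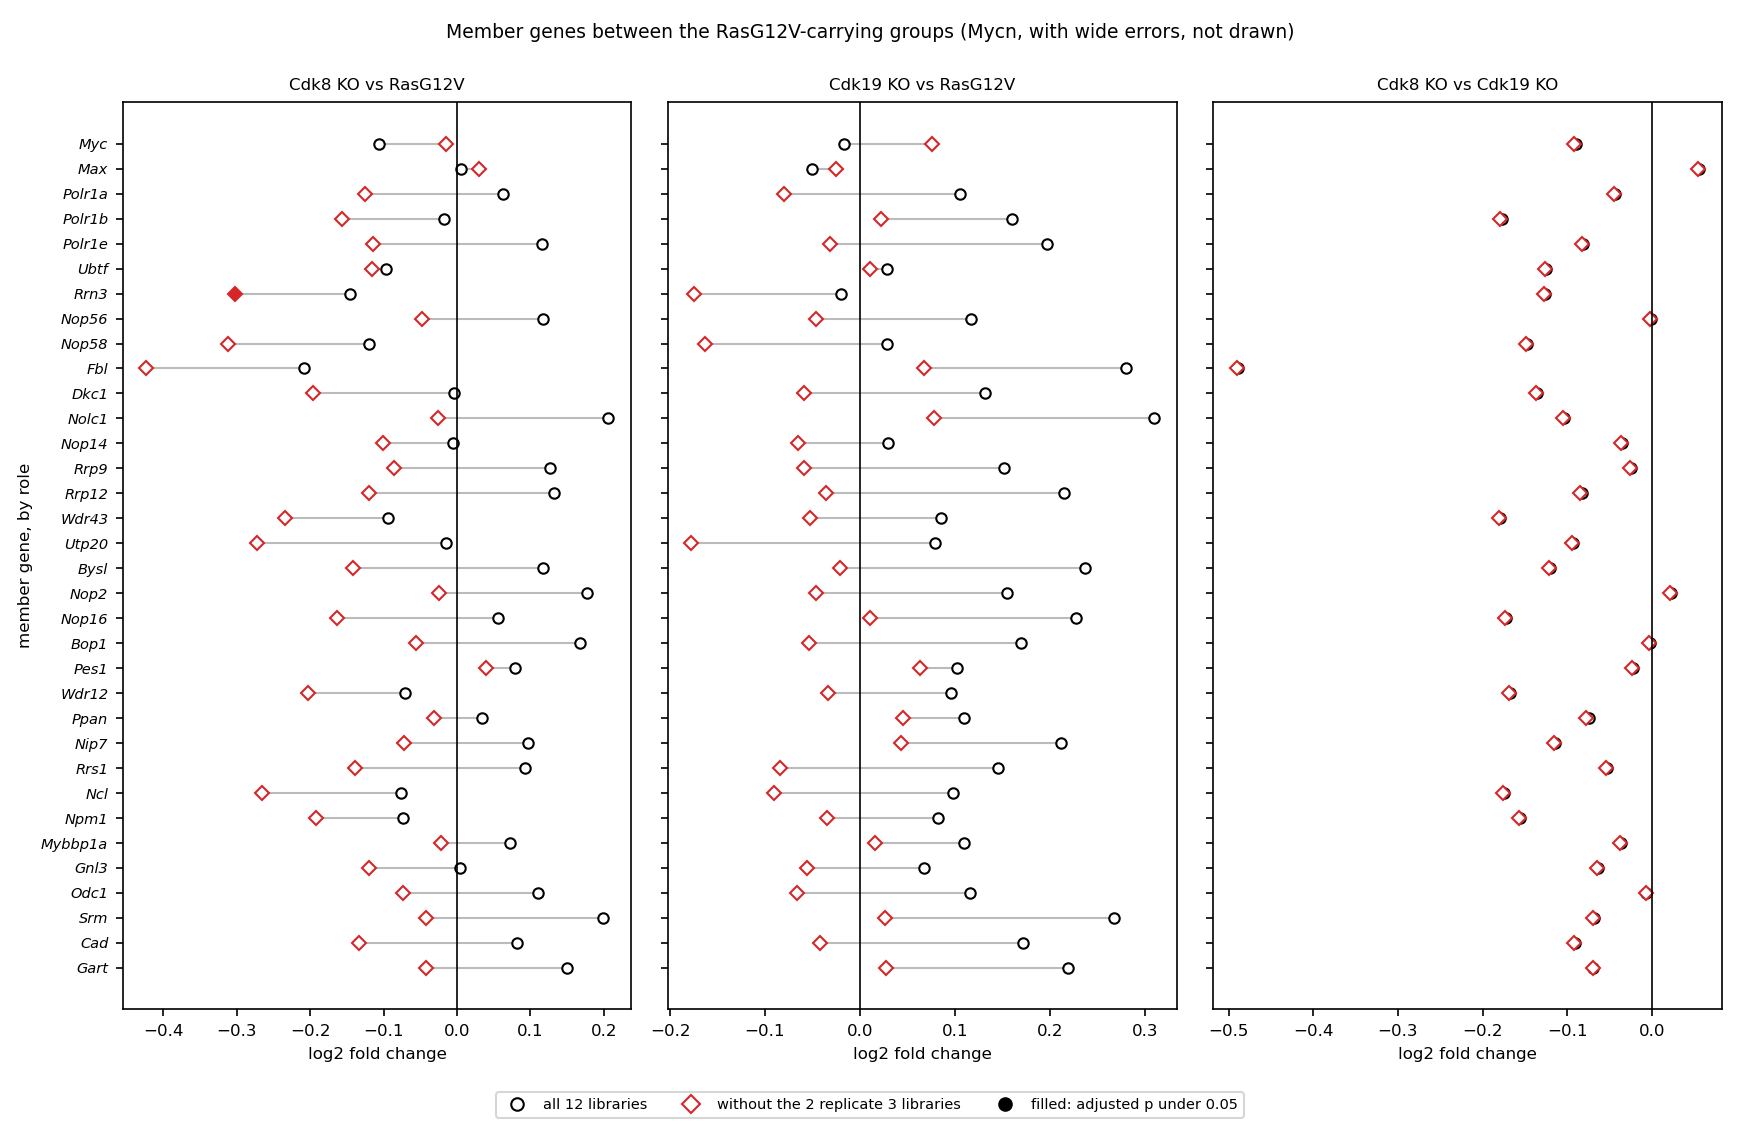
Points show the log2 fold change of 34 members in Cdk8 KO and Cdk19 KO against RasG12V and in Cdk8 KO against Cdk19 KO, as circles with all 12 libraries and as diamonds without the 2 replicate 3 libraries, filled where the edgeR adjusted p was under 0.05. In the first 2 panels the diamonds lie left of the circles for nearly all members, in the last they coincide, and Rrn3 in Cdk8 KO is the only filled point.

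The knockouts were also compared directly, and neither mean then holds a library that stood apart. In Cdk8 KO against Cdk19 KO 0 members passed with edgeR, against 0.105% of all genes. With edgeR 1027 genes and 0 members were under an unadjusted p of 0.05, and DESeq2 passed 113 genes and 0 members. Without the libraries that stood apart, which enter the shared estimate of the spread, 0 members passed against 5.32% of all genes. Of 35 members 32 were lower in Cdk8 KO, with a median of -0.08, against -0.004 over all genes. The largest values were those of Mycn (0.62), Fbl (-0.49), Wdr43 (-0.18) and Polr1b (-0.18), with edgeR adjusted p from 0.825 to 0.927. Polr1b, the second largest subunit of RNA polymerase I, stood at 123, 109 and 116 CPM in Cdk8 KO and at 131, 129 and 133 CPM in Cdk19 KO. Wdr43, a small subunit processome protein, stood at 171, 150.1 and 164 CPM in Cdk8 KO and at 176, 193 and 181 CPM in Cdk19 KO. Neither overlapped, and with Ubtf and Rrn3 they make up the 4 members that were lower in all Cdk8 KO libraries, against 9.59% of all genes. None was higher in all, against 11.1%.

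Fbl, the methyltransferase of box C/D snoRNPs, varied widely between replicates. It stood at 113, 201 and 206 CPM in untransformed cells, at 255, 224 and 139 in RasG12V, at 231, 190.2 and 113 in Cdk8 KO and at 224, 289 and 236 in Cdk19 KO. The low libraries were untransformed replicate 1, RasG12V replicate 3 and Cdk8 KO replicate 3, of which RasG12V replicate 3 was low for most members. Its partners in the same particle, Nop56 and Nop58, were not low in untransformed replicate 1, at 443 and 516 CPM against 452.5 and 590 CPM in replicate 2. The standard error of Fbl, 0.29 in each comparison, was the largest of the members outside Mycn, and that of Ubtf, 0.07, was the smallest.

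Few other genes of the same pathways passed the test with all libraries. Of 45 tested genes of small subunit processing outside the list, 3 rose and 0 fell with RasG12V. Of 45 of large subunit processing 3 rose and 1 fell. In that fit 11.9% of all genes rose and 11.5% fell. Wdr36, a small subunit processome protein, stood at 134, 145 and 130.2 CPM in untransformed cells and at 249, 233 and 218 CPM in RasG12V, a log2 fold change of 0.77 (SE 0.07, edgeR adjusted p = 1.194e-05). Gtpbp4, a nucleolar GTPase of the large subunit, rose by 0.42 (SE 0.08, edgeR adjusted p = 0.00259), and Eif6, which keeps the subunits apart, fell by 0.47 (SE 0.12, 0.0151). Of 11 other genes of RNA polymerase I transcription, 10 other snoRNP genes and 13 snoRNA host RNAs, 0 passed with edgeR or DESeq2, and 1 snoRNA host RNA was under an unadjusted p of 0.05. Without both replicate 3 libraries 13 small subunit genes rose and 1 fell, and 12 large subunit genes rose and 1 fell, in a fit where 19.0% of all genes rose and 21.0% fell. In that fit 2 of the RNA polymerase I genes rose and 1 fell, 2 snoRNP genes rose and 0 fell, and 0 snoRNA host RNAs passed.

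Of 38 other MYC targets 2 rose and 2 fell with RasG12V, against 11.9% and 11.5% of all genes, with a median of 0.007. The risers were the glycolytic genes Hk2, by 0.67 (SE 0.12, edgeR adjusted p = 0.0018), and Ldha, by 0.65 (SE 0.13, 0.00344). Slc3a2, the heavy chain of amino acid transporters, fell by 0.55 (SE 0.14, edgeR adjusted p = 0.0119), and the cyclin gene Ccnd2 fell by 0.64 (SE 0.19, 0.03). Without both replicate 3 libraries 4 of these targets rose and 7 fell, against 19.0% and 21.0% of all genes. Of 16 S phase genes 6 fell and 0 rose with RasG12V, where 11.5% of all genes fell, and 13 fell without both replicate 3 libraries, where 21.0% did. Of 12 mitosis genes 1 fell and 0 rose, and without both libraries 3 rose and 1 fell. In either knockout against RasG12V 0 of the 206 genes of these lists passed with edgeR or DESeq2, with 5 in Cdk8 KO and 6 in Cdk19 KO under an unadjusted p of 0.05.

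Several members are snoRNA hosts. In GENCODE M21, 8 of the 35 had snoRNA or scaRNA genes inside them on the same strand, or 22.9%, against 1.91% of 11963 protein-coding genes tested, with 22 such genes in all. They were Nop56 (5), Nop58 (4), Wdr43 (3), Ncl (3), Gnl3 (3), Ppan (2), Dkc1 (1) and Odc1 (1). Of these, Dkc1, Ncl and Gnl3 rose with RasG12V in the fit without both replicate 3 libraries, where 14 of 35 members rose. They did not pass with all libraries. For Bysl 10.7% of its reads on both strands lay on the opposite strand, more than for any other member.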

How the data were processed

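The 12 libraries were made from rRNA-depleted total RNA with a TruSeq RNA kit, per the labels' protocols. FastQC and STAR 2.6.0a with GRCm38.p6 were used by the authors, per the submitters' processing notes, and the annotation release is not given in the sources used here. The deposited values are raw read counts for each Ensembl gene, unstranded and for either strand. Column 4 was used, which held 24.7 to 28.9 times the reads of the opposite-strand column. Reads without a gene, 33.0% to 34.8% of each library, were left out of library sizes. Of 54146 identifiers 54079 matched GENCODE M21 (GRCm38).

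Counts were filtered by group (filterByExpr), scaled by TMM and tested with the robust quasi-likelihood test of edgeR 4.0.16 (R 4.3.3), in 1 fit of all 12 libraries without a block. P-values carry Benjamini-Hochberg adjustment over 14283 genes, with a threshold of 0.05. SE is an approximate standard error, the size of the log2 fold change over the root of its F statistic, and approximate 95% intervals rest on it. The scripts were tested on simulated data. The members and lists were chosen with earlier results of these data known. All 35 members are in the counts, but not every one is named in the text. Values by library are given for Myc, Mycn, Max and, per comparison, up to 4 members a direction past the threshold by adjusted p, or the 4 with the largest change where none passed. Values by library for Rrn3 and Fbl were added after they were seen. Of other lists up to 3 genes a direction are named. Of 251 list and marker entries 248 were matched. Alternatives included DESeq2 1.42.0, limma-voom (limma 3.58.1), other scalings and filters, the unstranded column, a replicate block and leaving out libraries. Figures were drawn with matplotlib 3.10.9.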

Additional observations from a re-analysis of the deposited data

How the results depend on the processing

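Each comparison was repeated under 22 alternatives. With the 2 replicate 3 libraries left out together, members past the threshold went from 2 to 15 in RasG12V against untransformed cells, from 0 to 1 in Cdk8 KO against RasG12V, from 4 to 7 in Cdk8 KO and from 5 to 13 in Cdk19 KO against untransformed cells. Genes past it were then 5799, 231, 291, 771, 6116 and 6314, for RasG12V against untransformed cells, Cdk8 KO and Cdk19 KO against RasG12V, Cdk8 KO against Cdk19 KO, and Cdk8 KO and Cdk19 KO against untransformed cells, where the fits with all libraries gave 3340, 0, 2, 15, 3490 and 3608. Rrp12 in Cdk8 KO against untransformed cells turned from 0.02 to -0.24 (log2), and no other call changed sign under any alternative. With 1 library left out, members past the threshold ran from 1 to 19 in RasG12V, 2 to 13 in Cdk8 KO and 2 to 17 in Cdk19 KO against untransformed cells, and stayed at 0 in the other 3 comparisons. Genes ran from 2359 to 4808, 0 to 3, 0 to 21, 0 to 133, 2529 to 4880 and 2649 to 5094 in the order above. In each comparison against untransformed cells the highest member count came without RasG12V replicate 3. With only the 2 groups compared, members numbered 1, 7 and 11 in RasG12V, Cdk8 KO and Cdk19 KO against untransformed cells, and genes 1574 in RasG12V against untransformed cells, 1 in Cdk19 KO against RasG12V and 496 in Cdk8 KO against Cdk19 KO. No filter on low counts gave 10 members in Cdk19 KO against untransformed cells, and 16, 84 and 108 genes in Cdk8 KO and Cdk19 KO against RasG12V and Cdk8 KO against Cdk19 KO. DESeq2 gave 30, 66 and 113 genes in these 3. The labels name no pairing of replicate numbers. Same-numbered deviations correlated at -0.03, 0.18 and 0.16 for RasG12V against untransformed cells and at 0.25, -0.17 and 0.15 for Cdk8 KO against RasG12V. They correlated at -0.02, 0.21 and 0.28 for Cdk19 KO against RasG12V, and from -0.09 to 0.14 in the remaining comparisons. Such correlations within groups of 3 cannot tell whether samples of the same number shared a batch. With the replicate block, members numbered 4, 7 and 12 in RasG12V, Cdk8 KO and Cdk19 KO against untransformed cells, where 25.8%, 26.3% and 27.9% of all genes passed, and 1 gene passed in Cdk8 KO against RasG12V. Member calls other than these counts were within 1.5 times under RLE and upper quartile scaling, the filter of 1 CPM in 3 libraries, limma-voom, DESeq2 and the unstranded column. Depth limits Mycn, with 3 to 15 counts in libraries with H-RasG12V.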
